A study of Mus musculus with 6 samples.

Results

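The genes described here are the 3 Myc family transcription factors *Myc*, *Mycn* and *Mycl*, the 3 D-type cyclins *Ccnd1*, *Ccnd2* and *Ccnd3*, and the 2 kinases that these cyclins activate, *Cdk4* and *Cdk6*, which are 8 of 21951 protein-coding genes of the mouse annotation. They were chosen by name for their place in the control of cell division, with earlier results of these data known. Every binding peak whose midpoint lay within 100 kb of one of the gene bodies was taken. This gave 18 of 5427 Gli3 peaks from the mandibular prominence (MNP), 19 of 5752 Gli3 peaks from the whole face and 92 of 59583 Hand2 peaks from the MNP. ChIP-seq with the anti-FLAG M2 antibody mapped where Gli3 and Hand2, each carrying a FLAG tag (genotypes Gli3 3XFlagbio and Hand2 3XFlagbio), sit on chromatin of CD1 embryos at E11.5, although the series text gives E10.5. The paper names the *Hand2* allele 3xFlag, without bio. There were 3 groups of 2 replicates, Gli3 in the MNP, Gli3 in the whole face and Hand2 in the MNP, and each experiment used tissue pooled from several embryos. The MNP forms the lower jaw and tongue and is contained in the whole face, so the Gli3 lists are not from separate tissues, and pooled tissue does not tell which cells carried a bound site. Each list merges the peaks of both replicates, every entry names both of them, and no entry carries a height or a read count. Read depth was not analysed here and is unknown. Counts of peaks therefore have no error between embryos, the 95% Wilson intervals given below cover counting error only, and neither tissue markers nor expression of the 8 genes can be read from such lists.

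Myc proteins are basic helix-loop-helix leucine zipper factors that pair with Max on the E-box CACGTG and promote growth and division. D-type cyclins bind Cdk4 or Cdk6, and the active kinase phosphorylates the retinoblastoma protein, which releases E2F factors and lets the cell enter S phase. Hedgehog signals, which act through Gli proteins, are known to raise *Mycn*, *Ccnd1* and *Ccnd2* in dividing progenitors of the cerebellum and other tissues, and Gli3 is the family member that serves mainly as a repressor when the signal is absent. Hand2 is a basic helix-loop-helix factor of the mandibular mesenchyme that binds E-boxes (CANNTG).

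The stretches of sequence that the results turn on are shown here, each read 5′ to 3′ on the plus strand of mm10 (GRCm38). Capitals mark exact matches on either strand to the canonical Gli binding motif GACCACCC (cGBM; GGGTGGTC when read from the other strand), the divergent form GACCTCCC (dGBM; GGGAGGTC), the Hand-type E-box CAGATG, which reads CATCTG from the other strand, or the Myc-type E-box CACGTG. The pair of *Mycl* sites, chr4:122995867-122995896 and chr4:122997013-122997042, are shown because their peak was the member peak with most cGBMs. The *Ccnd2* stretches are the whole face peak just upstream of the gene (chr6:127153203-127153408) and part of the distant upstream element found in all 3 lists (chr6:127251168-127251337). The *Cdk6* stretch (chr5:3343399-3343628) lies in an intron and holds both Gli forms beside E-boxes. The *Mycn* intronic peak (chr12:12939010-12939217) and the *Ccnd1* upstream peak (chr7:144941390-144941594) were bound in all 3 lists and hold no marked motif. The *Cdk4* stretch (chr10:127063234-127063533) ends at the base before the transcription start site (TSS) inside a Hand2 peak, the first *Myc* stretch (chr15:62037850-62038087) is a whole face Gli3 peak, and the other (chr15:62068784-62069016) is the part of the Hand2 peak with most CAGATG.
Mycl, upstream site: tgtctcctaggGACCACCCcccctcctggt
Mycl, downstream site: attctggtaagGACCACCCgggggctagct
Ccnd2, upstream peak: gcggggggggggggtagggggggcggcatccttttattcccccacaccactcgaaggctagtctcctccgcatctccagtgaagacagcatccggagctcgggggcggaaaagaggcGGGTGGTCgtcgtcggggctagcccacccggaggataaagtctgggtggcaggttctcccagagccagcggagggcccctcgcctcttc
Ccnd2, distant element: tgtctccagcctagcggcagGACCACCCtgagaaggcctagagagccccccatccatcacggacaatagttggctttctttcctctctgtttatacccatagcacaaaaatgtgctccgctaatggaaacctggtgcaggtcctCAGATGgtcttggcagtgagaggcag
Cdk6, intron: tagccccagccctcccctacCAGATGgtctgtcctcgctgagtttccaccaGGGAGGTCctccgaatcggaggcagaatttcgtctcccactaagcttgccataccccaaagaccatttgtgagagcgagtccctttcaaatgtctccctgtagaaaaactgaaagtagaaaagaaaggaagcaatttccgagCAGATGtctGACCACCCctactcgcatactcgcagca
Mycn, intron: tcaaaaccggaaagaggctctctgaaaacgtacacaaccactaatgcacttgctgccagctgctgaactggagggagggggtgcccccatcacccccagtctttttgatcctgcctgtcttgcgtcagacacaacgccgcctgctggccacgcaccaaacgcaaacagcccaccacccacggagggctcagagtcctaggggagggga
Ccnd1, upstream peak: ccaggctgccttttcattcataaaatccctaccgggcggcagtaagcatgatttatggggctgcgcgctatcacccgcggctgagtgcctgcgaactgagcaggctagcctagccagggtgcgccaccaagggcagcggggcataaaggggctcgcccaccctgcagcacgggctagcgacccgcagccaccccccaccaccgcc
Cdk4, upstream of the TSS: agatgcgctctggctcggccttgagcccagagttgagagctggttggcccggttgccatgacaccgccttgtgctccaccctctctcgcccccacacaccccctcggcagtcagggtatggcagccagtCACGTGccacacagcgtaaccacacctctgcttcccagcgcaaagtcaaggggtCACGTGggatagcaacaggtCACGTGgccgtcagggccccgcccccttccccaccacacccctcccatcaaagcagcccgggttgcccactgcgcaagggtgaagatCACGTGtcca
Myc, downstream Gli3 peak: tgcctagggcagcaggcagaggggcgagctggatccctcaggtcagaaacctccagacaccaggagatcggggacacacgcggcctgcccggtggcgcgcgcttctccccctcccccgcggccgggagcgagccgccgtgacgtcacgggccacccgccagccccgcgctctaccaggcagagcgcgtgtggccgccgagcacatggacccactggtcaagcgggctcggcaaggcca
Myc, Hand2 peak: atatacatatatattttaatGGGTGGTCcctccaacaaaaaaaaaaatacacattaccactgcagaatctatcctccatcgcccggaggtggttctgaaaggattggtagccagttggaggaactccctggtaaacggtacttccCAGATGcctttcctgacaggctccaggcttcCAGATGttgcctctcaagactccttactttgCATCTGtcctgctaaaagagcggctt
None of these stretches overlaps an annotated untranslated region.

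Gli3 peaks were present near nearly all of the 8 genes, and *Mycn* and *Ccnd2* had the most, 9 of both lists each. A site found in both lists counts once for each list in this total. With overlapping peaks of both lists joined, *Mycn* and *Ccnd2* still had the most, by a smaller margin. At least 1 Gli3 MNP peak lay in the windows of 7 of the 8 genes, all but *Myc*, where 56.1% of all protein-coding genes had one. At least 1 Gli3 whole face peak lay in the windows of 6, all but *Mycl* and *Ccnd3*, against 46.1% of all genes, and all 8 had a Hand2 peak, as did 89.0% of all genes. The median number of peaks per window was 2 in the Gli3 MNP list, 2.5 in the Gli3 whole face list and 11 in the Hand2 list for the 8 genes, against 1, 0 and 6 for all genes. *Ccnd2* had 5 Gli3 MNP peaks and *Mycn* had 4, counts that 2.72% and 5.74% of all genes reached. In the whole face list *Mycn* had 5 peaks, which 1.24% of all genes reached, and *Ccnd2* and *Cdk6* had 4 each, which 3.18% reached. *Ccnd1* had 3 peaks in each Gli3 list, which 13.2% of all genes reached in the MNP list and 8.44% in the whole face list. The order in the Hand2 list was another one, led by *Ccnd3* with 18 peaks and *Cdk6* with 17. Those are the genes with the longest windows, 295 and 390 kb, against 204 to 227 kb for the others. Per 100 kb of window the order changed, and *Ccnd1* led with 6.19 Hand2 peaks, followed by *Ccnd3* with 6.11 and *Mycn* with 5.83, while *Cdk6* had 4.36. Per 100 kb *Mycn* and *Ccnd2* still had the most Gli3 peaks, 1.94 and 2.2 in the MNP list and 2.43 and 1.76 in the whole face list.

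**Figure D1:**
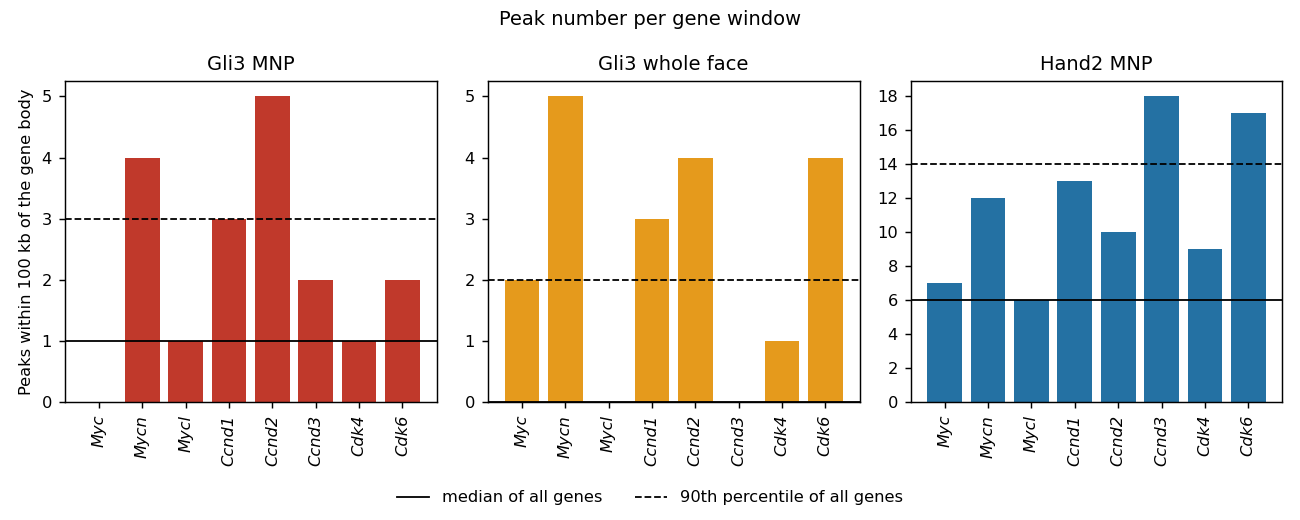
Number of peaks within 100 kb of each gene body (y axis, peaks) for the 8 genes, with 1 panel per peak list; the solid line is the median and the dashed line the 90th percentile of all 21951 protein-coding genes. *Mycn* and *Ccnd2* stand above the 90th percentile in both Gli3 lists, and *Ccnd3* and *Cdk6* in the Hand2 list.

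Part of the binding was at the TSS. A Gli3 MNP peak had its midpoint within 1 kb of the TSS at 4 of the 8 genes (*Mycn*, *Mycl*, *Ccnd1* and *Cdk4*), against 15.4% of all genes. In the whole face list there were 3 such genes (*Mycn*, *Ccnd2* and *Cdk6*), against 5.37%, and in the Hand2 list 6 (all but *Ccnd2* and *Ccnd3*), against 30%. *Mycn* was the only one of the 8 in all 3 of these sets, which rests on the peak midpoint and the TSS of the gene record. Measured from the nearest start of any transcript, *Ccnd1* and *Cdk6* were also in all 3. With any part of the peak interval within 1 kb of the TSS, *Cdk6* was too. The number of Gli3 MNP genes depended on the distance allowed, with 2 genes at 500 bp and 7 at 5 kb. Within 5 kb of the TSS, a distance chosen after the counts were seen, *Mycn* held 4 Gli3 MNP, 3 Gli3 whole face and 5 Hand2 peaks. Only 14, 12 and 31 of all genes reached those numbers, list by list. *Ccnd1* and *Ccnd2* each held 3 Gli3 MNP peaks in that stretch, as many as 59 genes (0.269%) had, and 2 whole face peaks, as many as 0.538% had. The median of all genes was 0 in every list.

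**Figure D2:**
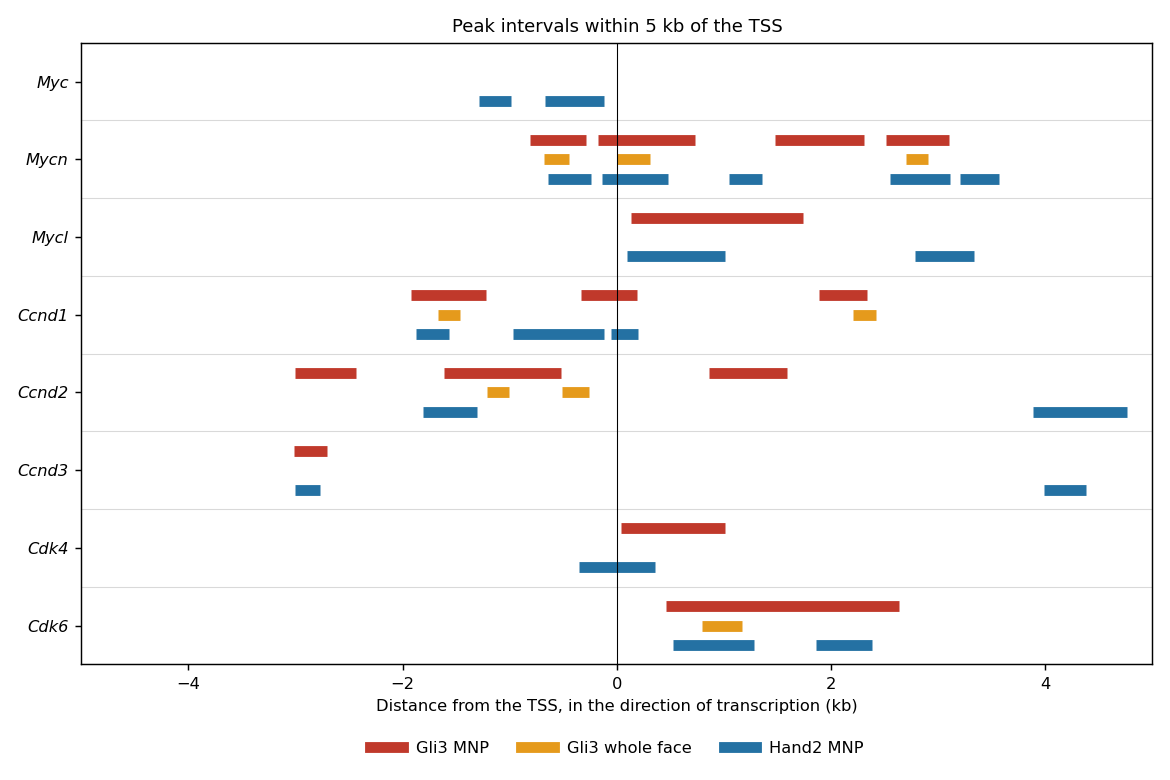
Peak intervals of the 3 lists within 5 kb of the TSS of each gene (x axis, kb in the direction of transcription; intervals are cut at 5 kb), drawn to scale. Intervals of all 3 lists lie over each other at 3 places of *Mycn*, at 1 of *Ccnd1* and at 1 of *Cdk6*, and no Gli3 interval is within 5 kb of the *Myc* TSS.

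*Mycn* drives the expansion of many embryonic progenitors, and its locus showed the most compact group of shared peaks. Of its 4 Gli3 MNP peaks, 3 overlapped both a Gli3 whole face peak and a Hand2 peak. They lay 551 bp upstream of the TSS, across the TSS (midpoint 274 bp downstream, in the UTR) and 2806 bp downstream in an intron. The whole face peaks inside them were 233, 309 and 208 bp long, with midpoints 563 bp upstream, 153 bp downstream and 2800 bp downstream. The remaining MNP peak, chr12:12939605-12940440, had its midpoint 1891 bp downstream in a coding exon and met neither other list, so it is a Gli3-alone peak. Further whole face peaks lay 37.7 kb and 99.4 kb downstream and overlapped neither Hand2 nor Gli3 MNP. The nearer one lay close to a Hand2 peak with its midpoint 37.1 kb downstream. No Gli3 peak in the *Mycn* window held GACCNCCC, with any base at the fifth position. E-boxes of the CAGATG type were present, with 2 in the MNP peak across the TSS and 1 in the Gli3-alone peak. The closest Hand2 peak to the TSS, 165 bp downstream, likewise held 2, the most of any Hand2 peak in the window, a number shared by the Hand2 peaks 35134 bp downstream and 86378 bp upstream. Every one of the 12 Hand2 peaks in this window had *Mycn* as its nearest protein-coding gene, and 3 of them touched Gli3.

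*Mycl*, the family member first found in lung cancer, carried 1 broad Gli3 MNP peak and no whole face peak within 100 kb. The MNP peak, chr4:122995788-122997392, was 1605 bp long, began 136 bp downstream of the TSS and shared 877 bp with the closest Hand2 peak, whose midpoint was 552 bp downstream. It held 2 cGBMs, 708 and 438 bp from its middle. At least 2 were found in 28 of 5427 Gli3 MNP peaks (0.516%), but the median length of that list was 577 bp. The upstream cGBM lay inside the Hand2 peak and 54 bp from an E-box, and the downstream one lay outside the Hand2 peak and 64 bp from an E-box. The peak also held 1 CAGATG and 1 CACGTG. The closest whole face peak to *Mycl* was 238 kb away, farther than for 64.4% of all genes. Of the 6 Hand2 peaks in the window, only 2 had *Mycl* as nearest gene, and the others were nearer to *Mfsd2a*, *Trit1* or *Bmp8b*.

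*Myc* had no Gli3 MNP peak in its window, and the closest one on its chromosome was 2336 kb away, a distance exceeded by 2.03% of all genes. The whole face list gave 2 peaks, 52578 and 64202 bp downstream, and both overlapped Hand2. The nearer one covered the start of *Pvt1*, a long noncoding RNA gene downstream of *Myc*, with its midpoint 17 bp before that start, and it had the highest GC content of the whole face peaks in the 8 windows, 72.7%. The farther one was in an intron of *Pvt1*. Neither held a cGBM, a dGBM or CAGATG. Hand2 was nearer, with peaks 395 and 1135 bp upstream of the *Myc* TSS that touched no Gli3 peak. The Hand2 peak with most CAGATG in any of the 8 windows, 4 copies, lay 83564 bp from the *Myc* TSS in a *Pvt1* intron and also held 1 cGBM without being in either Gli3 list. At least 4 copies were found in 681 of 59583 Hand2 peaks (1.14%).

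**Figure D3:**
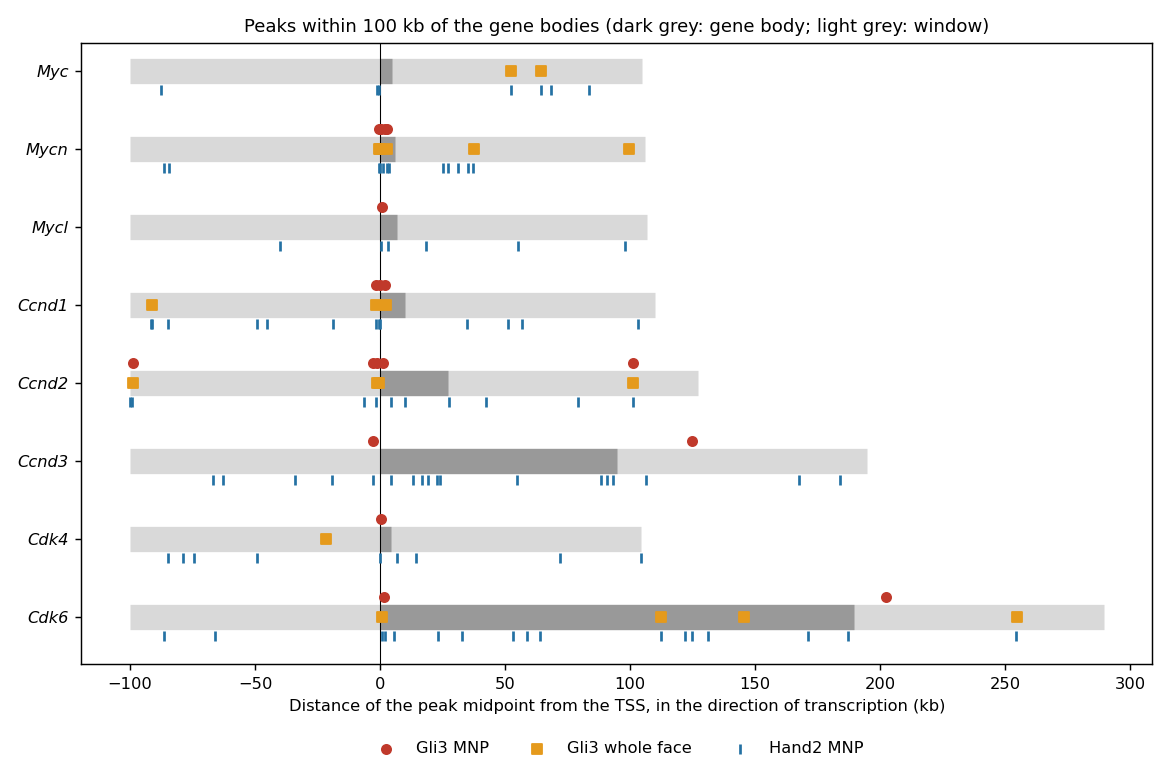
Midpoints of all peaks in the 8 windows (x axis, kb from the TSS in the direction of transcription), with the gene body in dark grey and the window in light grey. Gli3 MNP peaks (circles) and Gli3 whole face peaks (squares) sit together near the TSS of *Mycn*, *Ccnd1*, *Ccnd2* and *Cdk6* and about 100 kb on either side of the *Ccnd2* TSS, while Hand2 peaks (ticks) are spread over all windows.

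Among the D-type cyclins, *Ccnd1* and *Ccnd2* carried Gli3 peaks at the gene itself and *Ccnd3* did not. *Ccnd1*, the cyclin most often amplified in tumours, had 3 Gli3 MNP and 3 Gli3 whole face peaks. The peak 1574 bp upstream of its TSS was in all 3 lists, and the whole face entry there, 1567 bp upstream, shared 106 of its 205 bp with Hand2. The MNP peak across the TSS (midpoint 73 bp upstream) met 2 Hand2 peaks and no whole face peak. The MNP peak 2110 bp downstream, in an intron, met a whole face peak 2310 bp downstream and no Hand2 peak. Another whole face peak lay 91175 bp upstream inside a Hand2 peak. None of these 6 Gli3 peaks held GACCNCCC or CAGATG, and the whole face peaks 1567 bp upstream and 2310 bp downstream held no CCTCC and no E-box either. CCTCC, the short core of the dGBM, was present in 15 of 19 whole face peaks of the 8 windows (78.9%) and in 66.5% of the whole list. The Hand2 peak closest to the *Ccnd1* TSS was 68 bp downstream, and the one with most CAGATG, 3, was 56601 bp downstream and nearer to *Fgf15*, a secreted growth factor.

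*Ccnd2* had the most Gli3 MNP peaks of the 8 genes, and all of the cGBM-holding whole face peaks. The whole face peak 1113 bp upstream of the TSS held a cGBM 18 bp from its middle and touched no Hand2 peak. The Gli3 MNP peak around it (midpoint 1064 bp upstream, 1093 bp long) reached the closest Hand2 peak, 1556 bp upstream, over 309 bp that do not include the cGBM. That MNP peak also held 2 CACGTG and 15 CCTCC. A further whole face peak 388 bp upstream ended at the base before that MNP peak began, so the lists abutted there without sharing a base. MNP peaks 1223 bp downstream, in the UTR, and 2723 bp upstream were Gli3-alone, and the downstream one held GACCCCCC, which differs from the cGBM only at the fifth position. An element 98961 bp upstream was in all 3 lists and held a cGBM and a CAGATG 123 bp apart, both shown above. Another element of all 3 lists lay 101185 bp downstream, but its nearest gene was *Fgf23*, a hormone that lowers blood phosphate, at 21894 bp. The Hand2 peak with most CAGATG, 2, was 27614 bp downstream and nearer to *Tigar*. The upstream element lies near the edge of the window. The Gli3 MNP peak nearest to the edge inside any window was this upstream element at 98961 bp, and the nearest outside was at 121 kb from *Cdk4*. For the whole face list these distances were 98.9 kb (*Ccnd2*) and 135 kb (*Cdk4*), and for Hand2 100000 bp (*Ccnd2*) and 101582 bp (*Mycn*).

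*Ccnd3*, the D-type cyclin best known from blood cells, had 2 Gli3 MNP peaks, and both were closer to the start of another gene. The peak 2859 bp upstream was 100 bp from the start of *Taf8*, which encodes a subunit of the general factor TFIID, and overlapped Hand2. The peak 124781 bp downstream was 858 bp from *Usp49*, which encodes a deubiquitinase, and was Gli3-alone. No whole face peak was found within 100 kb, and the closest lay 136 kb from the TSS. Hand2 was in contrast frequent, and 6 of its 18 peaks had *Ccnd3* as nearest gene, all of them within the gene body. RefSeq gives *Ccnd3* a second start 88.4 kb downstream of the one used here. From that start the closest Hand2 peak was 70 bp away, and 3 Hand2 peaks but no Gli3 peak lay within 5 kb. The Hand2 peak with most CAGATG, 3, was 54875 bp downstream in an intron, and the one closest to the 5′ TSS was 2891 bp upstream, beside *Taf8*.

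*Cdk4* and *Cdk6* each had 1 Gli3 MNP peak within 5 kb of the TSS, against 3 or 4 at *Mycn*, *Ccnd1* and *Ccnd2*, but within 1 kb each had 1 Gli3 peak of either list, as *Ccnd1* and *Ccnd2* did. *Cdk4* had 1 Gli3 MNP peak, 522 bp downstream of its TSS in the UTR, which shared 317 bp with a Hand2 peak. It was 969 bp long and held no GACCNCCC and 13 CCTCC, where the whole MNP list had 8.05 CCTCC per kb. That Hand2 peak had its midpoint 1 bp from the TSS, as close as in 0.146% of all genes. It held 4 CACGTG in the stretch printed above, and only 12 of 59583 Hand2 peaks (0.0201%) held at least 4. *Cdk4* is a known target of Myc in other cells. The whole face peak in its window, 21569 bp upstream, was 452 bp from *Eef1akmt3*, a methyltransferase gene, and met no other list. CAGATG was scarce here, with 1 copy each in the Hand2 peaks 74602 bp upstream and 72049 bp downstream.

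*Cdk6* had the broadest Gli3 peak of the 8 windows. This MNP entry, chr5:3341942-3344121, was 2180 bp long, with its midpoint 1547 bp downstream of the TSS, and it merged 5 calls of replicate 1 and 4 of replicate 2. It met 2 Hand2 peaks and a whole face peak 981 bp downstream, and held 1 cGBM, 1 dGBM, 3 CAGATG and 2 CACGTG. Over its length it also held 23 CCTCC, where the whole MNP list had 8.05 per kb. The cGBM was 10 bp from a CAGATG and the dGBM 32 bp from another, measured centre to centre. Both Gli sites lay in the Hand2 peak 2120 bp downstream and outside the whole face peak. From the middle of the MNP peak the cGBM was 573 bp and the dGBM 422 bp away. RefSeq places the *Cdk6* start 2.41 kb downstream of the one used here, and from there a Gli3 MNP midpoint was 861 bp away. Inside the long gene body the whole face list gave peaks 112572 bp downstream, with Hand2, and 145768 bp downstream, without it. The other MNP peak of the window was 153 bp from the start of the neighbour *Fam133b* and met no other list. Hand2 peaks covered the body, the closest to the TSS being 899 bp downstream and the one with most CAGATG, 3, being 53333 bp downstream.

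Gli3 peaks met Hand2 in these windows at shares whose intervals contain those of the whole lists, while Hand2 peaks touched Gli3 more often than in their whole list. Of the Gli3 MNP peaks, 12 of 18 (66.7%, interval 43.7 to 83.7%) overlapped a Hand2 peak by at least 1 bp, against 61.4% of the whole list. Of the whole face peaks, 12 of 19 did (63.2%, 41.0 to 80.9%), against 47.6%. The Gli3 lists shared 9 peaks, which are 50% of the 18 MNP peaks (29.0 to 71.0%), against 39.2% of the whole MNP list, and 47.4% of the 19 whole face peaks (27.3 to 68.3%), against 37.6% of the whole face list. MNP peaks that met both other lists were 8 of 18 (44.4%, 24.6 to 66.3%), against 24.2%, a share just below the interval. Seen from the other factor, 19 of 92 Hand2 peaks (20.7%, 13.6 to 30%) touched a Gli3 peak of either list, against 8.31% of all Hand2 peaks. This interval treats the 92 peaks as independent, although some touched the same Gli3 peak, at *Ccnd1* and at *Cdk6*. The 8 windows also held more Gli3 peaks, with medians of 2 (MNP) and 2.5 (whole face) against 1 and 0 for all genes. Hand2 peaks of the 8 windows were also more often within 1 kb of the start of some gene, 17.4% against 10.8%, as were whole face peaks, 31.6% against 18.8%, while for Gli3 MNP peaks the shares were 44.4% and 56.5%. The part of this in the overlaps was not tested. When overlapping Gli3 peaks of both lists were joined, the 8 windows held 28 elements. Of these, 9 were in both lists, and 8 of the 9 met Hand2. The MNP list alone gave 9, of which 4 met Hand2, and the whole face list alone gave 10, of which 5 did. In the whole MNP list, 61.8% of the peaks that touched a whole face peak and 61.2% of those that did not overlapped Hand2. For the MNP peaks of the 8 windows these shares were 8 of 9 (88.9%, 56.5 to 98.0%) and 4 of 9 (44.4%, 18.9 to 73.3%), and both intervals contain the whole-list value. Of whole face peaks without Gli3 MNP, 41.1% overlapped Hand2 in the whole list.

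Few Gli3 peaks of these windows held a cGBM, at shares whose intervals contain those of the whole lists. GACCACCC was found in 4 of 18 Gli3 MNP peaks (22.2%, 9.0 to 45.2%), against 13.3% of the whole list, and in 2 of 19 whole face peaks (10.5%, 2.94 to 31.4%), against 19.8%. All 4 MNP peaks, 1 of *Mycl*, 2 of *Ccnd2* and 1 of *Cdk6*, overlapped Hand2 (100%, 51 to 100%). In the whole list 391 of 724 (54%) did, a share that this interval contains. The downstream *Mycl* cGBM and the cGBM just upstream of *Ccnd2* were themselves outside the Hand2 peaks. Across both lists there were 7 distinct GACCNCCC sites, with A at the fifth position in 5, T in 1, C in 1 and G in 0. CAGATG was found in 7 of 18 Gli3 MNP peaks (38.9%, 20.3 to 61.4%), against 27.2% of the whole list, in 5 of 19 whole face peaks (26.3%, 11.8 to 48.8%), against 23.3%, and in 37 of 92 Hand2 peaks (40.2%, 30.8 to 50.4%), against 47.1%. Each interval for CAGATG contains the share of the whole list. The exact dGBM was found in 1 of 18 Gli3 MNP peaks (5.56%, 0.988 to 25.8%), against 6.6% of the whole list. It was in 0 of 19 whole face peaks (0 to 16.8%), against 6.17%, and in 3 of 92 Hand2 peaks (3.26%, 1.12 to 9.15%), against 1.82%. Each interval for the dGBM contains the share of the whole list. The paper classed Gli3/Hand2 overlapping peaks more loosely, asking for at least CCTCC in peaks without its cGBM match. That short core was found in 17 of 18 Gli3 MNP peaks (94.4%, 74.2 to 99%), against 90.3% of the whole list. Of the peaks that overlapped Hand2, 12 of 12 held it (100%, 75.8 to 100%), against 92.6%. Both intervals contain the whole-list share, and peaks with a cGBM were not left out of these counts. The following motifs of the Hand2 peaks had whole-list shares outside the interval of the 8 windows, CACGTG only narrowly. GACCACCC was found in 6 of 92 (6.52%, 3.02 to 13.5%), against 1.49% of the whole list, and 3 of these 6 peaks, those of *Mycl*, *Cdk6* and the distant *Ccnd2* element, touched Gli3. CCTCC was found in 78 of 92 (84.8%, 76.1 to 90.7%), against 74.1%, and CACGTG in 13 of 92 (14.1%, 8.45 to 22.7%), against 8.30%. E-boxes of any kind, CANNTG, went the other way, with 77 of 92 (83.7%, 74.8 to 89.9%), against 92.3%. In the middle 200 bp of the Hand2 peaks, CACGTG was found in 4.35% (1.7 to 10.7%), against 3.52% of the whole list. CANNTG was found there in 68.5% (58.4 to 77.1%), against 74.2%, and both intervals contain the whole-list share. GACCACCC was found there in 2.17% (0.598 to 7.58%), against 0.582%, and CCTCC in 62% (51.7 to 71.2%), against 48.8%. These 2 intervals leave it out, that of GACCACCC only narrowly and on 2 of 92 peaks, both of which touched Gli3. The part of peak length and GC content in these shares was not tested. The median length was 586 bp in the Gli3 MNP list, 227 bp in the whole face list and 494 bp in the Hand2 list for the 8 windows, against 577, 222 and 451 bp for the whole lists, and the median GC content was 60.0, 56.5 and 51.5%, against 62.2, 51.3 and 46.9%.

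**Figure D4:**
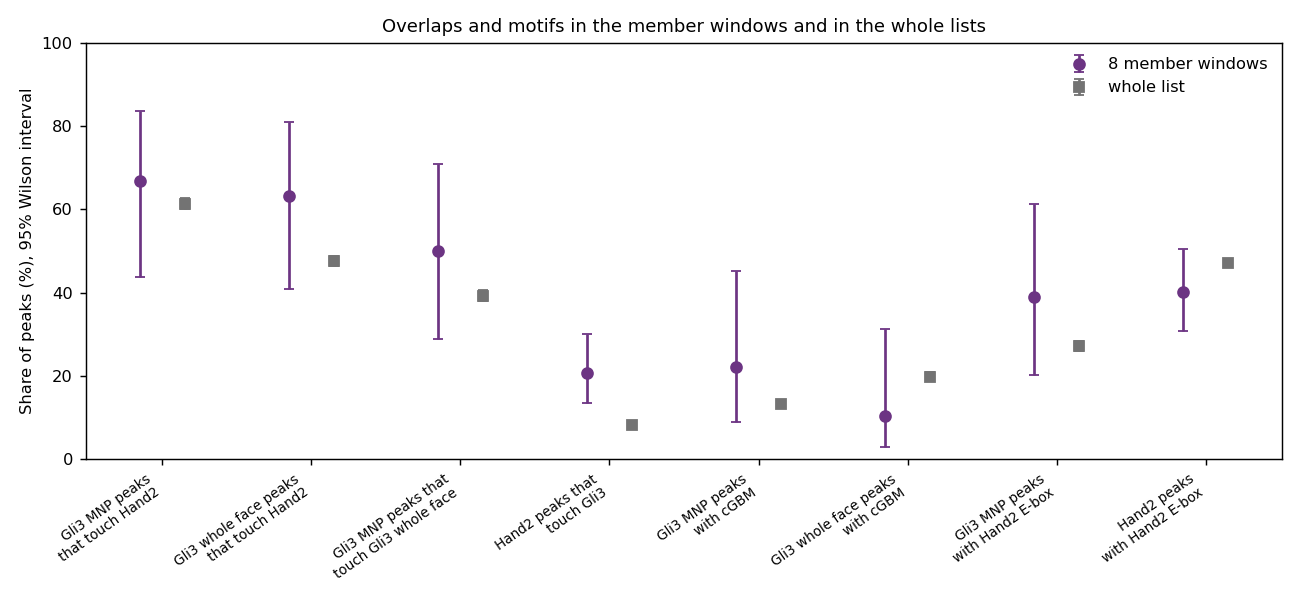
Share of peaks (y axis, %, with 95% Wilson intervals) that touch another list or hold a motif, in the 8 windows (circles, left of each pair) and in the whole list (squares). The cGBM is GACCACCC and the Hand2 E-box CAGATG; of the shares drawn, only that of Hand2 peaks touching Gli3 has an interval that leaves out the whole-list share, 20.7% against 8.31%.

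The other genes of the pathway had fewer Gli3 peaks at the median. They were taken as 4 lists with 32 genes in all. A Gli3 MNP peak lay in the windows of 24 of the 32, a whole face peak in those of 21 and a Hand2 peak in all 32. For all protein-coding genes these shares were 56.1, 46.1 and 89.0%. The median numbers per window were 1, 1 and 7, against 1, 0 and 6 for all genes. Within 1 kb of the TSS there was a Gli3 MNP peak at 9 of the 32, against 15.4% of all genes. Among 9 partners and competitors of Myc, these were *Max*, the obligate partner of Myc (237 bp), and *Mxd4*, a repressor that competes for Max (189 bp). Among 7 kinase inhibitors it was only *Cdkn1b*, which encodes p27 (434 bp). Among 9 pocket protein and E2F genes they were *Rbl1*, a relative of the retinoblastoma gene (3 bp), and *E2f5*, an E2F that acts mainly as a repressor (247 bp). Among 7 later cyclins and kinases, 4 had such a peak, *Ccne2* (311 bp), the S phase kinase gene *Cdk2* (329 bp), the mitotic kinase gene *Cdk1* (283 bp) and the phosphatase gene *Cdc25a* (697 bp). The genes with most Gli3 peaks of both lists in their windows were *Cdkn1a*, which encodes the inhibitor p21, with 8, *E2f2* with 7, and *E2f1* and *Cdc25a*, tied with 5. *Mycn* and *Ccnd2* had 9 each, and in all of these totals a site found in both lists counts once for each list.

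*Mycn* and *Ccnd2* thus tied for most Gli3 peaks, and the genes with the most similar counts were sought for both. Likeness was the Euclidean distance over log2(count + 1) of 4 counts, those of Gli3/Hand2 overlapping MNP peaks, Gli3-alone MNP peaks, whole face peaks and Hand2 peaks, over genes more than 1 Mb away. For *Mycn* (3, 1, 5 and 12 peaks) *Arhgef10l*, *Cbx2* and *Cbx8* had the same 4 counts, and *Cbx2* and *Cbx8* are neighbours that share peaks. For *Ccnd2* (3, 2, 4 and 10 peaks) the nearest were *Tmprss9* at a distance of 0.138 and *Psmd9* at 0.263, followed by *Cwc25* and *Lingo3*, tied at 0.322.

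*Myc* and *Mycn* lie in wide stretches without other protein-coding genes, and the peaks over these stretches were counted after the window counts had been seen. The stretch of *Myc*, 2853 kb between *A1bg* and *Gsdmc*, held 0 Gli3 MNP, 6 Gli3 whole face and 49 Hand2 peaks. Hand2 peaks came to 17.2 per Mb there, against 21.9 per Mb over all chromosomes, and whole face peaks to 2.1 per Mb, against 2.11. The whole face peaks were 441 and 177 kb upstream and 52.6, 64.2, 1067 and 1205 kb downstream, and 5 of the 6 touched Hand2, all but the one 177 kb upstream. Only the peak 441 kb upstream held a cGBM. The stretch of *Mycn*, 836 kb between *Ddx1* and *Fam49a*, was denser, with 6 Gli3 MNP, 10 Gli3 whole face and 56 Hand2 peaks, the last coming to 67.0 per Mb. Elements of all 3 lists lay 286 kb downstream and 273 kb upstream of *Mycn*, besides the 3 at the gene. Within 500 kb of the TSS *Mycn* had 51 Hand2 peaks, as many as 7.43% of all genes, and *Myc* had 21, as many as 65.1%.

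**Figure D5:**
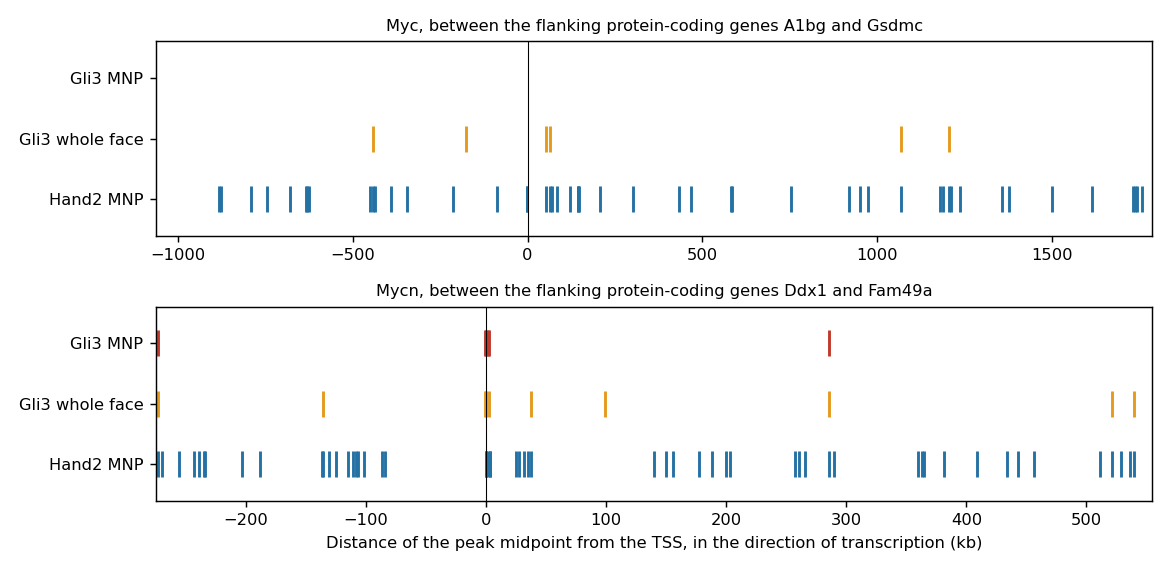
Midpoints of peaks (ticks) in the stretches between the protein-coding genes that flank *Myc* (top) and *Mycn* (bottom), on an x axis of kb from the TSS in the direction of transcription that differs between the panels. The *Myc* stretch holds no Gli3 MNP peak, and the *Mycn* stretch holds 6, of which 4 lie within 5 kb of the TSS.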

How the data were processed

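ChIP-seq reads (1 × 75 bp) of 6 samples were mapped to mm10 (GRCm38) by the authors with bwa and the peaks of both replicates were merged with bedtools, and the submitters' processing notes also name HOMER, all without versions. MACS is named in a supplement for pooled peak calls, and no source used here names the caller of the replicate peaks. The deposited lists hold peak positions and merged peak names, with no other value, so no peak could be ranked by strength. 0 columns were left without a group.

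Genes came from GENCODE release M21 and sequence from GRCm38. A peak belonged to a gene where its midpoint lay within 100 kb of the gene body, lists overlapped at 1 bp, and the TSS was the 5′ end of the gene record. Exact motifs were counted on both strands. Since the lists carry no replicate values, no test was made. The members and the pathway lists were chosen with earlier results of these data known. Named were all 8 members, each Gli3 peak, the Hand2 peak closest to each TSS and that with most CAGATG, the nearest genes of these peaks, pathway genes with a Gli3 MNP peak within 1 kb or the most Gli3 peaks, and the genes with the nearest counts. An item that this rule selects is not reported here. RefSeq starts (GRCm38.p6) were matched for 5 members, *Mycn*, *Mycl*, *Ccnd3*, *Cdk4* and *Cdk6*. Alternatives were other windows (50, 250 and 500 kb), TSS-centred windows, nearest genes, wide entries, 50% or midpoint overlap, other promoter distances and the middle 200 bp. The programs (Python 3.11.15, numpy 2.4.6, samtools 1.23.1, matplotlib 3.10.9) were tested on simulated data.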

Additional observations from a re-analysis of the deposited data

How the results depend on the processing

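Of 54 recomputed values that were free to differ, 42 stayed within 1.5 times the count, or within the interval of the share, given above. With wide entries only (at least the median length of their list) the windows held 10 Gli3 MNP, 10 Gli3 whole face and 52 Hand2 peaks, against 18, 19 and 92. With a window of 250 kb they held 35 Gli3 whole face and 174 Hand2 peaks, and 53 Hand2 peaks had the member as nearest TSS. A window of 500 kb around the TSS, chosen after seeing the data, gave 34 Gli3 MNP, 50 Gli3 whole face and 288 Hand2 peaks. In the middle 200 bp, which is a shorter stretch, CAGATG was found in 19.6% of the Hand2 peaks, against 40.2% of whole peaks. The number of members with a Gli3 MNP peak near the TSS was 2 at 500 bp and 7 at 5 kb, against 4 at 1 kb. The share of Gli3 MNP peaks that overlapped Hand2 fell from 66.7% to 50% when at least 50% of the peak had to be covered. It fell to 44.4% when the peak midpoint had to lie inside a Hand2 peak. Both values are within the interval only because it is wide, 43.7 to 83.7%. The whole face share was 63.2% under both rules. The overlap of Gli3 and Hand2 also stayed within its interval under the other rules tried. No paired analysis was possible because the deposited lists merge both replicates and no test was made, and a replicate could not be left out because every entry names both, which also fixed the 8 values recomputed on entries naming both. The lists carry no read counts, so the depth of the libraries limits what can be called absent: no peak in a window means only that none was listed.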

Other observations

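The Gli3 MNP entries of the 8 windows had more replicate 1 than replicate 2 calls merged into them in 8 of 18 cases (44.4%), against 40.5% of the whole list, and the reverse in 1. Hand2 peaks near *Ccnd1* that were nearer to another gene lay beside *Fgf3* and *Fgf15*, which share its window. Of the kinase inhibitors, *Cdkn1c*, which encodes p57, had 13 Hand2 peaks and no Gli3 peak of either list within 100 kb, while *Cdkn1a* also had 13 Hand2 peaks and 5 Gli3 MNP peaks, all of which overlapped Hand2. *Rb1*, the retinoblastoma gene, had the most Hand2 peaks of the 32 pathway genes, 21, with 1 Gli3 MNP and 0 Gli3 whole face peaks.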
